A study of Homo sapiens with 16 samples.

Results

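The regions described here are the stretches of the human genome that were called as enriched in DKO cells in chromatin immunoprecipitation followed by sequencing (ChIP-seq) for 7 targets. DKO cells derive from HCT116 and have disrupted DNMT1 and DNMT3B genes, which encode DNA methyltransferases. There were 906416 such regions among the 1255311 regions that the deposited tables list for the 7 targets in both cell lines. They were selected on measured values, the authors' peak calls: a region was kept where its table marks it as called in DKO only or as merged from calls in DKO and HCT116. The question asked of them was which targets share regions in the methyltransferase-deficient line, and how density and length go with that sharing.

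DKO and the parental HCT116 are colorectal carcinoma cell lines of colon origin, both grown in McCoy's 5A medium with serum. DKO carries the disrupted DNMT1 and DNMT3B genes, HCT116 does not, and no other treatment is named. Each line gave 1 library for each target: CTCF, RAD21, SMC1, acetylated lysine 27 of histone H3 (H3K27Ac), and 3 readouts of RNA polymerase II. Of these, Pol2Ser5 and Pol2Ser2 recognise phosphorylation at serine 5 and at serine 2 of the polymerase's C-terminal tail, and TotalRNAPol2 is titled as total polymerase. DKO is 1 derived line, and with 1 library per line and target there is no replicate error and no test. All intervals below are 95% intervals for counting error over regions. The TotalRNAPol2 samples have a title that names total polymerase and an antibody entry that names Pol2Ser5, while the protocol lists these targets with different agarose beads, so how far the Pol2Ser5 and TotalRNAPol2 tables are independent cannot be told from the labels.

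CTCF is a zinc finger protein that binds a long DNA motif, and methylation of that motif can block its binding. Cohesin, of which RAD21 and SMC1 are subunits, is a ring that extrudes and holds chromatin loops, and it is often halted where CTCF is bound, so the targets are known to meet at loop anchors and domain boundaries. H3K27Ac marks active promoters and enhancers, serine 5 phosphorylation marks polymerase that has started near a gene's beginning, and serine 2 phosphorylation marks polymerase that elongates along the gene body.

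The number of regions called in DKO was 145711 for CTCF, which is 84.9% of all regions in that table. It was 136255 for RAD21 (75.7%), 123230 for SMC1 (77.3%), 118195 for H3K27Ac (60.5%), 98936 for Pol2Ser5 (66.1%), 161377 for Pol2Ser2 (68.1%) and 122712 for TotalRNAPol2 (75.6%). These shares follow from the selection and are given as background. The read signal is the authors' normalized read density, which was normalized within each table. Levels are therefore set side by side only within a target, and across targets each region is given by its percentile among the regions of its own target called in DKO (0 lowest, 100 highest).

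The reads behind a density set its precision. A region held a median of 61 DKO reads for CTCF, 54 for RAD21, 59 for SMC1, 100 for H3K27Ac, 61 for Pol2Ser5, 31 for Pol2Ser2 and 90 for TotalRNAPol2. Pol2Ser2 was thus the table with the fewest reads per region, and its low ranks are the least precise. Reads were counted in windows of 1 kb for CTCF, RAD21 and SMC1 and of 2 kb for the other targets. Neighbours share reads: a second region of the same target was centred within 1 window of 33.7% of RAD21 and 68.5% of H3K27Ac regions, with the other targets in between. The calls have no sharp edge in density: DKO-called CTCF regions began at a density of 12.1 and had a 5th percentile of 26.0, whereas the CTCF regions not called in DKO had a median DKO density of 24.2 and reached 184.

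DKO regions were mostly short, and regions of 5 kb or more were more frequent in the targets of active chromatin. The median length was 443 bp for CTCF, 403 bp for RAD21, 358 bp for SMC1, 418 bp for H3K27Ac, 363 bp for Pol2Ser5, 282 bp for Pol2Ser2 and 418 bp for TotalRNAPol2. Regions of 5 kb or more made up 2.29% of H3K27Ac regions, 1.32% of TotalRNAPol2, 0.984% of Pol2Ser2, 0.951% of Pol2Ser5, 0.506% of CTCF, 0.172% of RAD21 and 0.0381% of SMC1 regions. At 1 kb or more the order was different. The shares were 25.2% for H3K27Ac, 24.7% for CTCF, 20.3% for TotalRNAPol2 and 20.2% for Pol2Ser5. They were 19.7% for RAD21, 12.0% for SMC1 and 10.2% for Pol2Ser2. The 2704 long H3K27Ac regions held 18.6% of all bases under H3K27Ac, and the 1588 long Pol2Ser2 regions held 14.1% of the bases under Pol2Ser2. Longer regions were also denser within each target, with a rank correlation of length and density between 0.60 (Pol2Ser2, over 161377 regions) and 0.79 (CTCF, over 145711 regions). A merged region was joined from the calls of both lines, so its length is not that of the DKO call alone.

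Regions shared between targets fell into a group of CTCF and cohesin and a group of polymerase forms, with H3K27Ac between them. By an overlap of at least 1 bp, 59.1% of CTCF regions met RAD21 and 48.7% met SMC1. In the other direction 70.6% of RAD21 and 71.9% of SMC1 regions met CTCF, and 76.1% of SMC1 regions met RAD21. Of Pol2Ser5 regions, 70.9% met TotalRNAPol2, 54.6% met Pol2Ser2 and 50.7% met H3K27Ac. H3K27Ac regions met TotalRNAPol2 in 41.6% of cases, RAD21 in 38.3%, CTCF in 37.5% and Pol2Ser5 in 36.5%, so the acetylated regions were shared about equally often with the architectural proteins and with polymerase. Pol2Ser2 shared least, meeting TotalRNAPol2 in 47.7% of cases and SMC1 in 21.0%. The interval of a share was narrow at these numbers, for example 70.4 to 70.9 for RAD21 with CTCF.

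**Figure D1:**
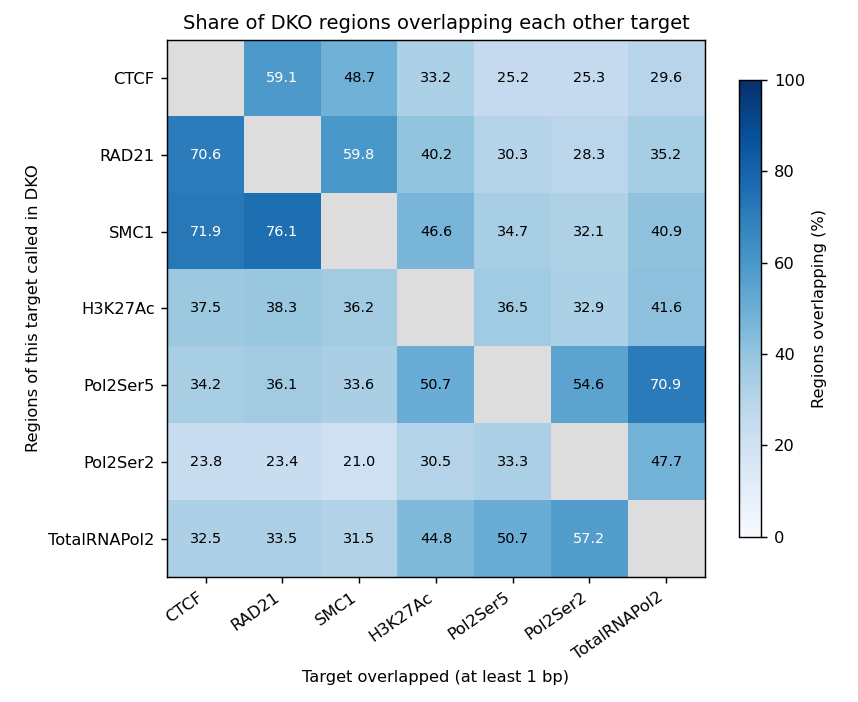
Share (%) of the DKO regions of each target (rows) that overlap a region of each other target (columns) by at least 1 bp. Shares run from 48.7% to 76.1% among CTCF, RAD21 and SMC1 and from 33.3% to 70.9% among the polymerase tables, and the row of Pol2Ser2 is the palest (21.0% to 47.7%).

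CTCF regions that carried both cohesin subunits were long and dense, and those that carried neither were short and weak. There were 64267 CTCF regions with both RAD21 and SMC1, or 44.1% (interval 43.9 to 44.4). Their median CTCF density percentile was 76.6 and their median length 1013 bp. The 52964 CTCF regions with neither subunit, 36.3% of the total, had a median percentile of 28.9 and a median length of 267 bp. CTCF regions with RAD21 but not SMC1 (15.0%) or with SMC1 but not RAD21 (4.56%) lay between them, at median percentiles of 39.9 and 41.4. The gap in density rank was present among regions of like length: from 300 bp to under 500 bp, the median percentile was 44.5 with both subunits and 32.9 with neither, and at 1000 bp or more it was 88.5 and 71.3.

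The share of CTCF regions with both subunits rose along the whole range of CTCF density. It was 8.03% in the lowest decile of regions, 27.5% in the 5th decile, 73.3% in the 8th and 99.5% in the highest. CTCF regions that met no other target ran the opposite way, at 58.6% of the lowest decile and 0.0412% of the highest. Overlap with H3K27Ac or polymerase did not follow this course: it was 23.1% in the lowest decile, 50.6% in the 7th, 44.7% in the 9th and 70.7% in the highest. CTCF regions with both cohesin subunits and no H3K27Ac or polymerase, the arrangement known from insulators and loop anchors away from active genes, were therefore most frequent in the 9th decile, at 52.0%, and made up 29.1% of the highest decile. With every region replaced by 1 kb around its midpoint, an alternative chosen after the data were seen, the shares of this class in the 9th and highest deciles were 52.8% and 33.3%.

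**Figure D2:**
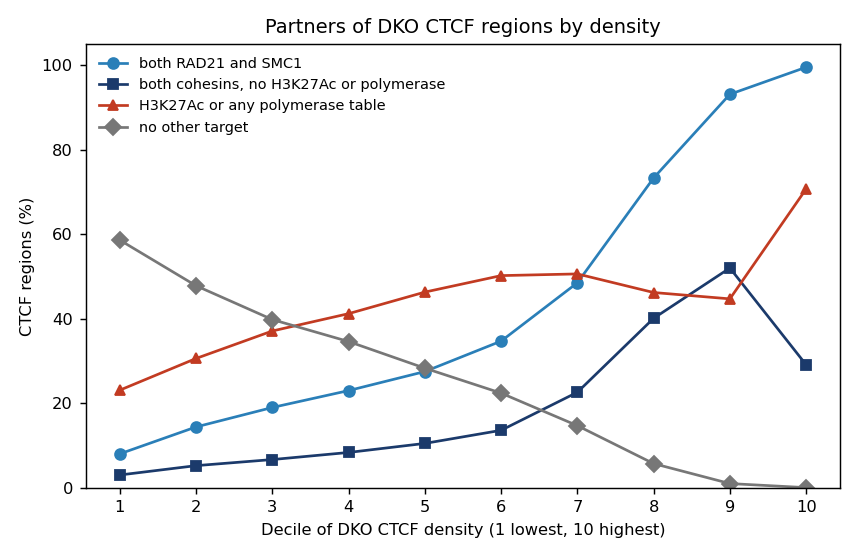
Share (%) of DKO CTCF regions with a given set of partners, by decile of CTCF density from lowest (1) to highest (10). The share with both cohesin subunits climbs to 99.5%, the share with no other target drops to 0.0412%, and the share with both subunits but no H3K27Ac or polymerase peaks at 52.0% in the 9th decile.

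Active chromatin overlapped CTCF regions more often where cohesin was present. H3K27Ac or at least 1 polymerase table was met by 56.7% of CTCF regions with both cohesin subunits and by 30.4% of those with neither. These groups differ in length, with medians of 1013 bp and 267 bp, and longer regions can meet more targets by 1 bp. The part of length in these shares was not tested. Among CTCF regions with both subunits, H3K27Ac split the polymerase overlap sharply: Pol2Ser5 was present at 73.9% of those with H3K27Ac and at 8.30% of those without it. TotalRNAPol2 was present at 77.9% and 12.0% of the same groups, and Pol2Ser2 at 60.4% and 13.7%. Among CTCF regions with both subunits, the median CTCF percentile was 76.1 with H3K27Ac or polymerase and 77.0 without them. Among those with neither subunit it was 38.7 with H3K27Ac or polymerase and 24.9 without, and over all CTCF regions it was 59.3 with H3K27Ac and 44.6 without.

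Regions with both cohesin subunits but no CTCF were weaker than those with CTCF and lay mostly in active chromatin. The 13314 RAD21 regions with SMC1 but without CTCF, 9.77% of RAD21 regions, had a median RAD21 percentile of 43.2 and a median length of 362 bp. The 68166 RAD21 regions with both SMC1 and CTCF had a median percentile of 73.6 and a median length of 771 bp. Of the regions without CTCF, 72.3% (interval 71.5 to 73.0) met H3K27Ac, against 43.2% (42.9 to 43.6) of the RAD21 regions that had SMC1 and CTCF. H3K27Ac or polymerase was met by 82.0% and 54% of the same groups, and H3K27Ac with all 3 polymerase tables by 26.8% and 22.4%. RAD21 regions with neither SMC1 nor CTCF, 19.6% of the total, were short and faint, with a median of 209 bp and 35 reads, and 48.2% of them met H3K27Ac or polymerase and 35.2% met H3K27Ac. RAD21 regions that met no other target had a median percentile of 13.1, and 6.74% of them were also called in HCT116. That share was 50.5% over all RAD21 regions and 13.7% in the lowest decile of RAD21 density.

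H3K27Ac regions were divided almost evenly by polymerase. At least 1 polymerase table was met by 50.3% of H3K27Ac regions (59457 of 118195), and 22.6% met all 3. H3K27Ac regions with all 3 had a median percentile of 83.8 and a median length of 1467 bp, and those with none had a median percentile of 35.2 and a median length of 297 bp. The order of the ranks was the same within each length class, and at 1000 bp or more the median percentile was 92.2 with all 3 and 60.8 with none. H3K27Ac regions that met no other target made up 33.5% of the table, with a median length of 272 bp.

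The architectural proteins and polymerase tended to meet the same H3K27Ac regions. Pol2Ser5 was present at 56.8% of H3K27Ac regions with CTCF, at 46.3% of those with cohesin but not CTCF, and at 18.2% of those with neither CTCF nor cohesin. For all 3 polymerase tables together the shares were 40.1%, 26.3% and 8.07%. The median length was 761 bp with CTCF and 682 bp with cohesin but not CTCF. Over all H3K27Ac regions without CTCF it was 333 bp, and the part of length in these shares was not tested. H3K27Ac regions that met polymerase and CTCF or cohesin were the densest of the 4 possible classes, with a median percentile of 77.1, against 49.5 with polymerase alone, 40.5 with CTCF or cohesin alone and 32.5 with no other target. These classes differ in length too, with medians of 1153 bp, 370 bp, 376 bp and 272 bp in that order, and the part of length in their ranks was not tested.

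Pol2Ser5, the form of polymerase near gene starts, overlapped H3K27Ac almost throughout its dense end. H3K27Ac was met by 15.2% of regions in the lowest decile of Pol2Ser5 density, by 91.8% in the 9th and by 99.5% in the highest. Overlap with Pol2Ser2, the elongating form, was uneven along the same scale, at 69.3% in the 8th decile, 60.6% in the 9th and 90.01% in the highest. In 1 kb windows around each midpoint the same 3 values were 63.9%, 61.3% and 86.7%. A further 24.7% of Pol2Ser5 regions met other polymerase tables and nothing else, and 14.2% met no other target, with a median of 31 reads.

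Pol2Ser2 was the target most often found by itself. There were 63538 Pol2Ser2 regions that met no other target, or 39.4% (interval 39.1 to 39.6), with a median length of 208 bp and a median of 19 reads. Pol2Ser2 regions of 1000 bp or more met at least 1 other target in 97.8% of cases, and those under 300 bp in 43.4%. Overlap with TotalRNAPol2 separated the table: 62.8% of Pol2Ser2 regions with TotalRNAPol2 met Pol2Ser5 and 51.8% met H3K27Ac, whereas 6.42% and 11.1% of those without TotalRNAPol2 did so. The regions with and without TotalRNAPol2 also differed in median percentile (71.1 and 30.3) and median length (444 bp and 215 bp). The part of density and length in these shares was not tested, and the Pol2Ser5 and TotalRNAPol2 tables may not be independent. Of the 1588 Pol2Ser2 regions of 5 kb or more, 99.6% met TotalRNAPol2, 98.1% met Pol2Ser5, 83.6% met H3K27Ac and 83.0% met CTCF, and 71.6% met all 6 other targets.

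Density ranks went together strongly within cohesin and CTCF and among H3K27Ac, Pol2Ser5 and TotalRNAPol2, and weakly between these groups. Each region was paired with the region of the other target that it overlapped longest, with each region in at most 1 pair. The rank correlation of the DKO densities is given as a description over pairs, which lie on the same DNA and partly share counting windows with their neighbours. It was 0.84 for RAD21 and SMC1 (78562 pairs), 0.81 for CTCF and RAD21 (80236 pairs) and 0.71 for CTCF and SMC1 (68840 pairs). It was 0.85 for Pol2Ser5 and TotalRNAPol2 (55901 pairs), 0.71 for H3K27Ac and Pol2Ser5 (36798 pairs) and 0.68 for H3K27Ac and TotalRNAPol2 (41584 pairs). Because of the antibody entry, how far the Pol2Ser5 and TotalRNAPol2 tables are independent cannot be told. CTCF density, by contrast, was almost unrelated to that of the active targets it overlapped, with 0.10 for H3K27Ac (36778 pairs), 0.05 for Pol2Ser5 (28506 pairs), 0.12 for Pol2Ser2 (30240 pairs) and 0.13 for TotalRNAPol2 (33810 pairs). The cohesin subunits stood slightly higher with the same targets: RAD21 had between 0.16 (Pol2Ser2) and 0.25 (TotalRNAPol2), and SMC1 between 0.15 (Pol2Ser5) and 0.24 (TotalRNAPol2). Pol2Ser2 ranks followed TotalRNAPol2 at 0.54 and Pol2Ser5 at 0.29, and H3K27Ac at 0.19.

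**Figure D3:**
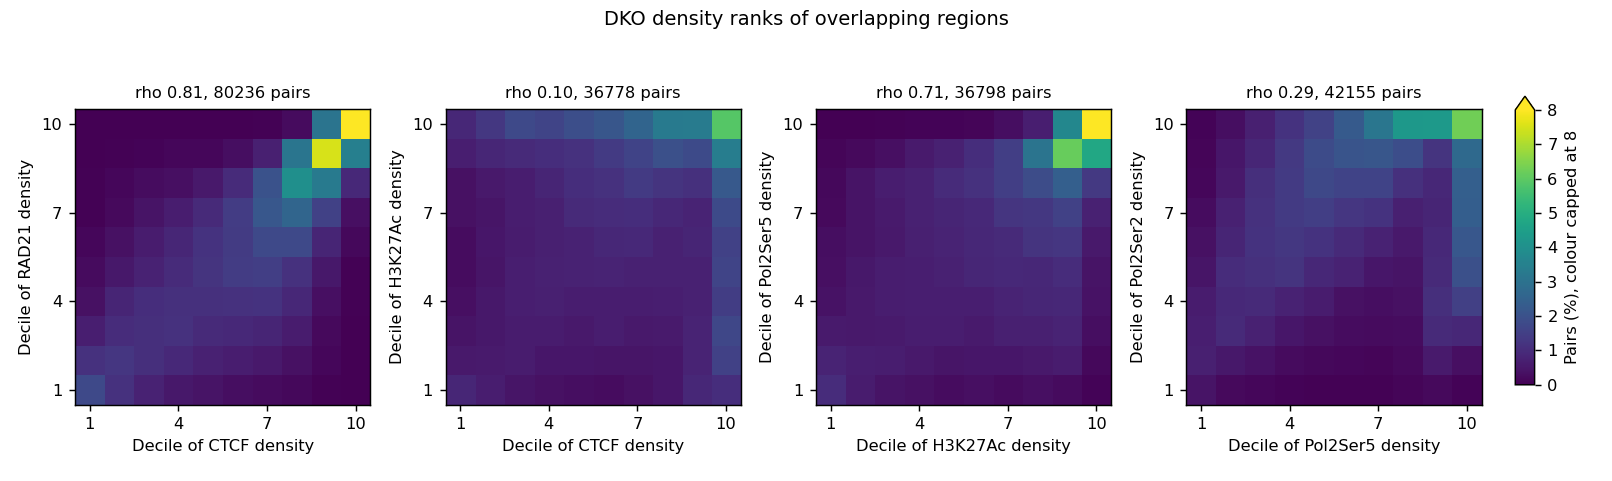
Share (%) of the paired overlapping regions in each cell of a grid of density deciles for 4 pairs of targets, with colours capped at 8%. CTCF with RAD21 and H3K27Ac with Pol2Ser5 lie along the diagonal and pile up in the top corner (13.1% and 20.6% of pairs in the cell of both highest deciles), and CTCF with H3K27Ac and Pol2Ser5 with Pol2Ser2 are spread out (5.89% and 6.27% in that cell).

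The dense ends of the tables showed the same division. In the highest decile of SMC1 density, 88.8% of regions met a RAD21 region of the highest decile of its own table. Likewise, 81.5% of the highest decile of Pol2Ser5 met the highest decile of H3K27Ac. For the highest decile of CTCF the shares were 73.0% with the highest decile of RAD21 and 16.6% with that of H3K27Ac. The highest decile of Pol2Ser5 met that of Pol2Ser2 in 29.6% of cases.

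Summits, the positions the tables give as the peak of each region, were closest between CTCF and cohesin. The median distance between the summits of paired regions was 30 bp for CTCF and RAD21, 37 bp for CTCF and SMC1 and 42 bp for RAD21 and SMC1. It was 104 bp for Pol2Ser5 and TotalRNAPol2, 178 bp for H3K27Ac and Pol2Ser5, and 248 bp for CTCF and H3K27Ac. Among pairs in which both regions were called in DKO only, whose regions are shorter, the distances were 59 bp for CTCF and RAD21, 114 bp for Pol2Ser5 and TotalRNAPol2, and 100 bp for CTCF and H3K27Ac. CTCF and RAD21 summits were thus the nearer pair in both sets, by a smaller margin in DKO-only pairs.

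Region length and density rank both went with the number of other targets present, but not in the same way for all targets. H3K27Ac regions with no other target had a median percentile of 32.5, and those with all 6 other targets had 90.8 and a median length of 2310 bp. Pol2Ser5 had 14.0 and 89.99, and TotalRNAPol2 17.9 and 92.3, in the same order. CTCF reached a median percentile of 71.5 and a length of 845 bp with 2 other targets, had 58.9 and 502 bp with 4, and 72.8 and 874 bp with all 6. RAD21 had the same double course at 63.6, 52.4 and 75.5 with 2, 4 and 6 other targets. Of the CTCF regions with 2 other targets, most had RAD21 and SMC1 as the pair: 27851 of the 35073. Pol2Ser2 went up at each step, to 81.1 with all 6 others, at a median length of 655 bp.

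**Figure D4:**
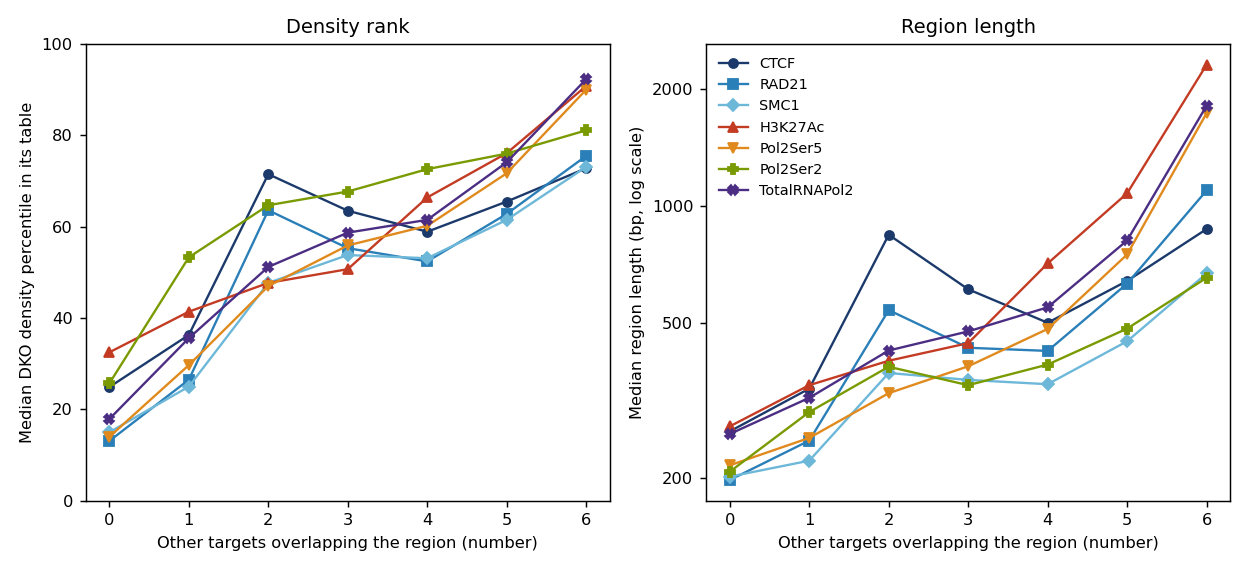
Median DKO density percentile (left) and median region length in bp on a log scale (right) against the number of other targets that overlap a region, for each target; error bars on the left are 95% intervals of the median and lie within the symbols. CTCF and RAD21 have a peak at 2 other targets (71.5 and 63.6), and H3K27Ac, Pol2Ser5 and TotalRNAPol2 end highest with all 6 (90.8, 89.99 and 92.3).

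When overlapping regions of all targets were joined into loci, the DKO regions formed 339991 loci that covered 282 Mb. Loci of 1 target were the most numerous, at 57.3%, but they were short and held 20.8% of the covered bases. All 127 possible combinations of targets were seen, and the 10 most frequent held 74.0% of loci. Pol2Ser2 alone came first with 63538 loci, followed by H3K27Ac alone with 39554 and CTCF alone with 36857. The most frequent combination of several targets was CTCF with RAD21 and SMC1, at 26412 loci with a median length of 1168 bp. Loci with all 7 targets came next among the combinations, at 12889, ahead of Pol2Ser2 with TotalRNAPol2 at 12716 and CTCF with RAD21 at 12566. RAD21 and SMC1 each stood alone less often than CTCF, at 13849 and 7854 loci.

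**Figure D5:**
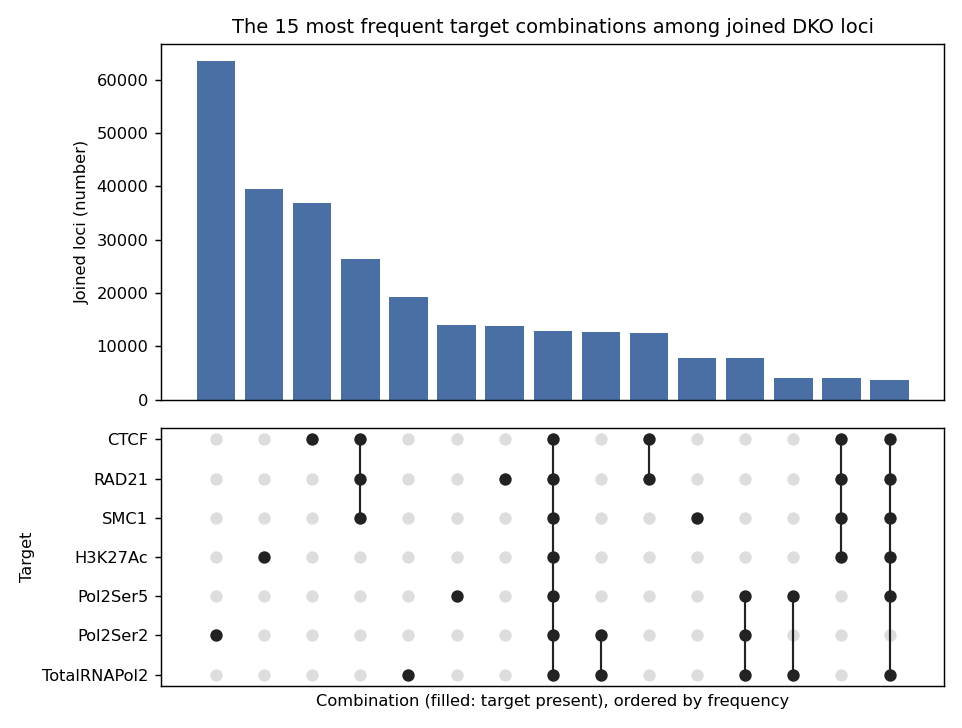
Number of joined DKO loci for each of the 15 most frequent target combinations; filled dots mark the targets present. Single targets hold 6 of the first 7 places, with CTCF, RAD21 and SMC1 together in the 4th (26412 loci) and all 7 targets in the 8th (12889 loci).

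The 12889 loci with all 7 targets were 3.79% of loci and held 22.8% of the covered bases, at a median length of 3648 bp. Positions where all 7 targets overlapped at the same base amounted to 6.98 Mb, or 2.48% of the covered bases. Within a locus of this kind H3K27Ac covered a median of 88.2% of the length, TotalRNAPol2 73.1%, Pol2Ser5 67.3%, RAD21 45.1%, CTCF 42.1%, Pol2Ser2 37.8% and SMC1 33.4%. The densest region of each target had a median percentile of 92.6 for TotalRNAPol2, 91.9 for H3K27Ac, 91.1 for Pol2Ser5, 80.3 for Pol2Ser2, 79.7 for CTCF, 78.7 for RAD21 and 76.6 for SMC1. By their densest regions, H3K27Ac, Pol2Ser5 and TotalRNAPol2 were thus nearer to the top of their tables than CTCF and cohesin, and Pol2Ser2 was about level with CTCF. The densest region depends on how many a locus holds: between 38.2% (SMC1) and 55.8% (H3K27Ac) of these loci held 1 region of the target. Over all regions in these loci the median percentile was 77.1 for Pol2Ser2 and 75.3 for Pol2Ser5. It was 80.8 for H3K27Ac, 81.3 for TotalRNAPol2, 61.2 for CTCF, 64.4 for RAD21 and 63.8 for SMC1. The summit of the densest CTCF region lay a median of 55 bp from that of RAD21, 412 bp from that of Pol2Ser5 and 478 bp from that of H3K27Ac. CTCF and Pol2Ser5 summits lay within 100 bp of each other in 19.1% of these loci, and CTCF and RAD21 summits in 59.8%.

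Gene names and sequences are not given for the regions below, since no hg19 gene annotation or genome was used here; for the same reason the line was not checked against marker genes. Coordinates are those of the tables on hg19, and lengths are end minus start. The locus with all 7 targets and the highest mean percentile was chr16:88862712-88886189, of 23477 bp. Its densest CTCF region had a density of 1016 (938 reads) and ranked 101 from the top of 145711, and its densest H3K27Ac region ranked 104, RAD21 88, SMC1 169, Pol2Ser5 47, Pol2Ser2 102 and TotalRNAPol2 21. CTCF and RAD21 were densest toward its end, at chr16:88880433-88885537 for CTCF. The longest stretch of Pol2Ser5 lay mostly before this, at chr16:88865463-88880544, and its end overlapped the CTCF region. Of the 6 loci that ranked highest, 4 others were also long, from 19814 bp to 41612 bp: chr17:79794967-79836579, chr8:145731096-145755980, chr17:80182531-80211743 and chr22:39913364-39933178. The place of CTCF in them varied. In the chromosome 8 locus the densest CTCF region lay at the start (chr8:145731101-145738024), mostly under the densest Pol2Ser5 region. In the chromosome 22 locus the densest CTCF region lay at the end (chr22:39929534-39933139), past the densest Pol2Ser5 region (chr22:39914457-39926090). The chromosome 22 locus held 5 Pol2Ser5 regions, and the positions of the others are not given here.

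The locus in the 2nd place, chr17:41399610-41401264, was short. It was 1654 bp long, and its regions were the densest of all SMC1 (804 reads), Pol2Ser2 (1330 reads) and TotalRNAPol2 (1974 reads) regions called in DKO. It ranked 12 for H3K27Ac, 14 for Pol2Ser5, 18 for RAD21 and 666 for CTCF, and all its densest regions were called in both lines. In the highest deciles of the tables the share called in both lines ran from 62.6% (Pol2Ser2) to 98.4% (RAD21). The input libraries were not analysed here, so whether the DNA there also gave many reads without antibody was not tested.

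CTCF regions with both cohesin subunits and no H3K27Ac or polymerase reached the top of the architectural tables. The 5 with the highest mean percentile were chr20:47271915-47275602, chr8:142515981-142520857, chr16:85852769-85856469, chr20:49922280-49924229 and chr20:43016401-43019304. The first had 1039 CTCF, 800 RAD21 and 557 SMC1 reads and ranked 38, 24 and 39 in these tables. All 5 were between 1949 bp and 4876 bp long, were called in both lines and ranked within the first 487 for CTCF, 52 for RAD21 and 45 for SMC1. A call in both lines is usual for dense regions: in the highest decile it held for 97.2% of CTCF, 98.4% of RAD21 and 93.5% of SMC1 regions. Of the 3 on chromosome 20, 2 lie in a segment from 42 Mb to 48 Mb in which DKO density exceeded HCT116 density in all 7 tables: the median log2 ratio of regions called in both lines was between 0.40 (TotalRNAPol2) and 0.56 (RAD21) there, and between -0.01 and 0.02 elsewhere. The part of that shift in these ranks was not tested.

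RAD21 regions with SMC1 and H3K27Ac but no CTCF were ranked by the mean percentile of these 3 targets. Apart from a region inside the short chromosome 17 locus, chr17:41399706-41400122, the leading examples were chr8:103800689-103802689 and chr3:193586234-193589221. The chromosome 8 region had 277 RAD21 and 260 SMC1 reads, at percentiles of 96.13 and 98.26, inside an H3K27Ac region of 12229 bp that ranked 31 from the top. The chromosome 3 region had 266 RAD21 and 208 SMC1 reads inside an H3K27Ac region of 9314 bp that ranked 233, at percentiles of 95.88 and 96.64. Since H3K27Ac entered the ranking, its high rank here follows from the choice.

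CTCF regions with no other target at all stopped short of the highest ranks. The densest 3 were chr20:44074194-44075372, chr14:107146819-107149666 and chr11:70022279-70024537, with CTCF densities of 274, 270 and 266 and ranks of 12661, 12970 and 13235 of 145711. They had 266, 266 and 255 reads, and all were called in both lines, as were 97.2% of CTCF regions in the highest decile. The first lies in the same segment of chromosome 20.

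The longest regions differed in kind. Each was merged from calls in both lines, so its length is not that of the DKO call alone. Among regions called in DKO only, the longest had 14318 bp for H3K27Ac and 5419 bp for CTCF. The longest H3K27Ac region, chr22:30584142-30658783, ran for 74641 bp at a modest H3K27Ac percentile of 84.33, and held 21 CTCF, 45 RAD21 and 47 SMC1 regions. The longest Pol2Ser2 region, chr6:151649354-151684287, ran for 34933 bp with 69 reads in its window, and the longest TotalRNAPol2 region, chr6:159180927-159224506, for 43579 bp. The longest Pol2Ser5 region, of 34341 bp, lay in the third of the all-target loci above, at chr17:79798973-79833314. The longest CTCF region was chr17:73608795-73623859 (15064 bp, rank 91) and the longest RAD21 region chr16:88496930-88513854 (16924 bp, rank 3), which was thus both long and dense, while the longest SMC1 region, chr4:8236773-8245144, had 8371 bp and rank 1150. A long region's density is read from 1 window, so it does not stand for the whole length.

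Regions called in DKO only met the partners compared here less often than regions merged from both lines, with an exception among the densest CTCF regions. Between 47.5% (H3K27Ac) and 73.3% (TotalRNAPol2) of the DKO regions were called in DKO only. Of the CTCF regions called in DKO only, 21.7% met both cohesin subunits, against 65.4% of the merged ones. These groups also differed in density and length, with median CTCF percentiles of 33.7 and 71.2 and median lengths of 261 bp and 885 bp. Within quartiles of CTCF density the shares were 10.7% and 18.4% in the lowest quartile, 19.0% and 33.9% in the next, 32.6% and 58.8% in the next, and 78.6% and 94.4% in the highest, with DKO-only regions first. The order was the same in each quartile, although lengths still differed there, with medians of 1075 bp and 1701 bp in the highest. All 6 other targets, in contrast, were met by 24.0% of DKO-only and 20.1% of merged CTCF regions in the highest quartile, and by 6.51% and 15.0% over all densities. For RAD21 with CTCF the shares were 54.2% and 86.7%, and for Pol2Ser5 with H3K27Ac they were 40.2% and 74.9%.

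The same sharing was computed over the regions called in HCT116, as a description of 1 set of libraries beside another. CTCF met both cohesin subunits at 44.1% of DKO and 48.3% of HCT116 regions, whereas RAD21 met CTCF at 70.6% of DKO and 61.8% of HCT116 regions. H3K27Ac met at least 1 polymerase table at 50.3% of DKO and 34.3% of HCT116 regions, and Pol2Ser5 met TotalRNAPol2 at 70.9% and 42.3%. Pol2Ser2 stood alone at 39.4% of DKO and 50.7% of HCT116 regions. All 7 targets met at 12889 DKO and 7870 HCT116 loci, of which 47.5% of the DKO loci and 78.0% of the HCT116 loci overlapped a locus of the other list. The number of regions called differed as well, at 906416 in DKO and 715183 in HCT116. More were called in DKO for CTCF (145711 against 100756), RAD21 (136255 against 112590), SMC1 (123230 against 90546) and TotalRNAPol2 (122712 against 72357). Only H3K27Ac had fewer regions in DKO, 118195 against 139241. The part of these numbers in the shares, which moved in both directions, could not be separated from the line here.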

How the data were processed

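Each deposited table lists, per the file headers, regions called in DKO only, HCT116 only or merged from both, with a normalized read density per line, which is a signal the authors normalized within the table. Its deposited M column is, on the log2 scale, the ratio of DKO to HCT116 density, and A the mean of both. Alignment to hg19 with BWA, and MACS2 for all targets but TotalRNAPol2, are named in the submitters' processing notes; their versions and thresholds are not stated there. Total library sizes were not used.

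From these, regions called in DKO were kept and overlapped by 1 bp or more with bedtools 2.31.1 under Python 3.11.15 (pandas 2.3.3, numpy 2.4.6, scipy 1.17.1). Percentiles rank the DKO density within a table. Joined loci chain overlapping regions of any target. Reads were recovered from M and A less the 1 read taken to have been added to each. Of these values 100% were whole within 0.05 plus a small allowance in proportion to the count. The authors' line in A ties the normalized DKO density partly to the HCT116 reads, with a slope of 0.33 in the Pol2Ser2 table, 0.32 in the TotalRNAPol2 table and -0.13 to 0.06 elsewhere; the rank correlation of recovered reads with density was at least 0.997. Shares carry Wilson intervals and medians order-statistic intervals, at 95%. Named regions were the 6 loci with all 7 targets, 5 CTCF regions with both cohesin subunits and no active target, 3 RAD21 regions with SMC1 and H3K27Ac but no CTCF, and 3 CTCF regions with no other target that ranked highest, and the longest region of each target. Overlaps and read recovery were tested on simulated data. The selection, lists and settings were chosen with earlier results of these data known. Planned lists of genes were not used, since no hg19 annotation was used here. The tables do not state whether starts count from 0 or 1. The 2 input libraries were not analysed here.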

Additional observations from a re-analysis of the deposited data

How the results depend on the processing

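The 7 main values were the percent of CTCF regions with both cohesin subunits (44.1), of RAD21 regions with CTCF (70.6), of H3K27Ac regions with polymerase (50.3) and of Pol2Ser2 regions with no other target (39.4), the number of loci with all 7 targets (12889), and the gaps in median percentile of CTCF with both against neither cohesin subunit (47.7) and of H3K27Ac with all 3 against no polymerase table (48.6). Of 38 alternative values 13 moved by less than the counting interval or 1.5 times for a number of loci, and 25 moved by more. Only the gaps in median percentile could change direction, and 0 of them did. Shares and numbers of loci have no direction to change. Where an overlap had to reach 50% of the shorter region, the 4 shares were 42.6, 68.2, 47.7 and 43.9 and the H3K27Ac gap 49.8. With 1 kb around each midpoint in place of each region, the shares were 54.1, 73.7, 58.5 and 27.9 and the gaps 43.8 and 45.6. With regions at or above their table's median density, the shares were 49.2, 80.0, 58.1 and 31.5, the loci 6117 and the gaps 25.1 and 23.3. With regions called in DKO only in all tables, they were 12.7, 27.9, 29.8 and 61.7, the loci 687 and the gaps 26.1 and 32.3. This last set leaves out every merged region, so partners are missing by construction. All 7 values stayed within these limits without chromosome X, the chromosome 13 segment from 48 Mb to 54 Mb and the chromosome 20 segment from 42 Mb to 48 Mb. Ranking by recovered reads gave gaps of 47.9 and 48.5.

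No paired analysis was possible because each line has 1 library per target and the labels give no replicate numbers. Counting intervals cover counting error over regions and not differences between cultures, libraries or antibodies. Depth limits the faint regions most, above all Pol2Ser2 regions with no other target, at a median of 19 reads. A region described as alone had no other target called at this depth.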

Other observations

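Sharing with active chromatin differed widely between chromosomes, and sharing of CTCF with cohesin did not. CTCF regions met H3K27Ac or polymerase in 72.0% of cases on chromosome 19, 64.6% on 17 and 62.1% on 22, against 26.5% on 18, 29.3% on X and 30.2% on 13. Over all CTCF regions the share was 44.1%. The number of H3K27Ac regions differed as well, with 8181 beside 7599 CTCF regions on chromosome 19 and 1708 beside 2869 on 18. The part of these numbers in the shares was not tested. CTCF with both cohesin subunits stayed between 37.1% on X and 47.3% on 17. Loci with all 7 targets were 7.35% of loci on chromosome 19 and 2.19% on 18, and Pol2Ser2 regions with no other target were 22.6% and 54% of Pol2Ser2 regions there. On X the CTCF regions called in DKO had a median percentile of 29.9, and 66.2% of them were also called in HCT116. That share was 41.3% on chromosome 21 and 51.3% over all CTCF regions.

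RAD21 and SMC1, subunits of the same ring, were not called at the same places in full: 76.1% of SMC1 regions met RAD21 and 59.8% of RAD21 regions met SMC1. Where CTCF and RAD21 met without SMC1 (28052 RAD21 regions), the median RAD21 percentile was 32.2 and 22.2% met H3K27Ac. Where SMC1 met neither CTCF nor RAD21 (19609 SMC1 regions), the median SMC1 percentile was 23.3, the median length 214 bp, and 8.78% were also called in HCT116. That share was 44.2% over all SMC1 regions and 19.8% in the lowest decile of SMC1 density.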
